A study of Sus scrofa with 220 samples.

Results

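The fatty acid metabolism genes are the rows of the count table whose pig symbol begins with ACAD, ACSL, ACSM, ACOX, ACOT, CPT1, CPT2, HADH, ECH, ECI, ELOVL, FADS or FABP, or is ACLY, ACACA, ACACB, FASN or SCD. This gave 47 rows, and 44 of them had TPM (a transcript level scaled for gene length and depth) over 1 in at least 3 of the 220 cells. The other 3, ACSM5, FABP6 and FADS6, fell short of this limit. The 44 members stand among 14721 entries that passed the same limit, out of 22840. The 4 genes that gave the set its name were widely detected, ACSL6 in 102 cells, CPT1A in 114, ACADL in 166 and ACADSB in 183.

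The cells came from embryos of artificially inseminated pigs and were sequenced one by one with Smart-seq2, without any treatment or genetic change. The labels name 7 groups, which are morula (M), inner cell mass and trophectoderm of the early blastocyst (EB ICM, EB TE), epiblast and hypoblast of the late blastocyst (LB EPI, LB HYPO), and epiblast and hypoblast of the spherical embryo (Sph EPI, Sph HYPO). They held 47, 24, 28, 25, 36, 48 and 12 cells from 8, 7, 10, 4, 5, 4 and 3 embryos, with 1 morula cell that could not be placed in an embryo. Stages follow from the embryos collected, epiblast and hypoblast of spherical embryos were separated by hand, and lineage names rest at least in part on the authors' clustering of the same cells' transcriptomes, members included, while trophectoderm of later stages was not among the labels. Cells were assigned to embryos by the letter codes in their names (C, AN and so on), and the counts of all cells with the same embryo and label were added up. The resulting 41 sums, of which 6 held a single cell, were the replicates. Counts per cell ranged from 1012604 to 5696373.

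The markers of each lineage were mostly high where the labels put them. Summed over 5 epiblast markers, the level was 571 to 2565 CPM (counts scaled to the TMM-adjusted library total) in LB EPI. It was 1250 to 1564 in Sph EPI and at most 275 in the other labels. DNMT3B had the highest mean of this list in both, at 615 TPM in LB EPI and 463 in Sph EPI. PRDM14, SALL2, DNMT3B and SFRP2 had higher mean TPM in both epiblast labels than elsewhere. NODAL had means of 57.4 TPM in LB EPI, 88.3 in Sph EPI and 70.4 ± 91.7 (SD, n = 3) in Sph HYPO. The 6 hypoblast markers summed to 4402 CPM or more in LB HYPO and 5765 or more in Sph HYPO, and to at most 2666 elsewhere. The 7 trophectoderm markers summed to between 18284 and 58765 CPM in 9 of 10 EB TE sums, but to 225 in the sum E6-ER, a single cell whose embryo is also less certain and which went against its label. In Sph HYPO the same list, which includes the keratins KRT8 and KRT18, reached 18319 to 50155 CPM, against 2674 to 10879 in Sph EPI.

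Before a fatty acid can be used it is joined to coenzyme A by an acyl-CoA synthetase (ACSL, ACSM), and thioesterases (ACOT) undo that step. Long-chain acyl groups then enter mitochondria through the carnitine palmitoyltransferases (CPT) and are shortened in rounds of β-oxidation, in which acyl-CoA dehydrogenases (ACAD), hydratases and isomerases (ECH, ECI) and hydroxyacyl-CoA dehydrogenases (HADH) act in turn. In the opposite direction ACLY makes acetyl-CoA from citrate, ACACA and FASN build fatty acids from it, and elongases (ELOVL) and desaturases (FADS, SCD) modify them. Pig oocytes and early embryos are known for their rich stores of lipid droplets.

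Per gene length, HADH and ACADM, both of β-oxidation, had the highest mean levels among the leading members of the families. The mean TPM over the 7 labels was 314 for HADH, a mitochondrial hydroxyacyl-CoA dehydrogenase, 241 for ACADM, the medium-chain acyl-CoA dehydrogenase, and 228 for FABP5, a cytosolic fatty acid binding protein. The leading members of further families had mean TPM of 203 (ACOT9), 178 (ACSL3), 76.9 (ECHDC1), 60.6 (ACLY), 52.2 (SCD), 17.5 (CPT1A), 12.6 (ACSM3) and 4.38 (ELOVL2). Low in the list stood FASN, the fatty acid synthase, at no more than 2.93 mean TPM in any label, and ACACA, the acetyl-CoA carboxylase, at no more than 6.10, whereas ACLY had between 27.6 and 94.1. Together the 44 members took a mean of 2187 TPM ± 148 (SD, n = 8) in M, 2923 ± 425 (n = 7) in EB ICM, 2344 ± 320 (n = 10) in EB TE and 2985 ± 118 (n = 4) in LB EPI. In LB HYPO they took 2567 TPM ± 263 (n = 5), in Sph EPI 2293 ± 155 (n = 4) and in Sph HYPO 2601 ± 476 (n = 3). The label with the highest mean was M for 3 members, EB ICM for 9, EB TE for 5, LB EPI for 6, LB HYPO for 4, Sph EPI for 10 and Sph HYPO for 7.

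**Figure D1:**
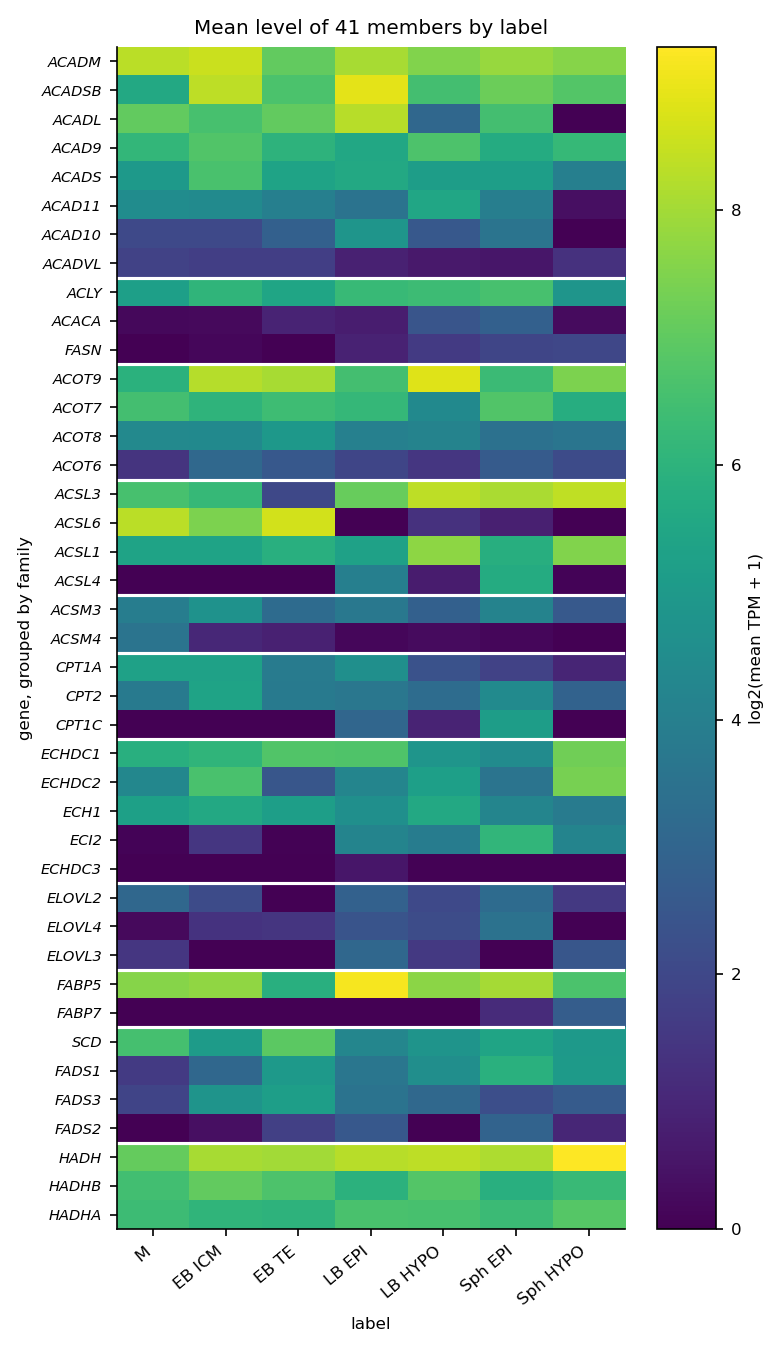
Mean level of 41 of the 44 members in each label, as log2(mean TPM + 1), with the genes grouped by family and white lines between families. HADH and ACADM are bright in all 7 columns, ACSL6 is bright in M, EB ICM and EB TE and near 0 in the later labels, and ACSL4 and CPT1C are near 0 in the first 3 columns and highest in Sph EPI.

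Over the 7 labels, 20 of the 44 members differed (edgeR quasi-likelihood F test, Benjamini-Hochberg adjusted p under 0.05), where 37.7% of all entries were called. In simulated data this test over 7 labels also called unchanged genes of few counts, so it was repeated on entries with a mean of at least 100 counts per sum. There 12 of 31 members were called, against 21.1% of all such entries, among them ACSL6, ACSL4, ACADL, ECI2, CPT1C, ACADSB, ACSL3, CPT1A, HADH and FABP5. DESeq2 and limma on log2(TPM + 1) called 20 and 22 of the 44, and 2514 and 4806 of all 14721 entries. ECHDC3, FABP7, FASN and FADS2, which were among the 12 members of smallest p, had mean counts under that limit and are described by their levels.

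The clearest change among the members was in the synthetases. ACSL6, a long-chain acyl-CoA synthetase best known from brain, was the leading ACSL of the earliest labels, with a mean of 318 TPM ± 118 (SD, n = 8) in M, 175 ± 97.5 (n = 7) in EB ICM and 396 ± 176 (n = 10) in EB TE, and it led its family in 7 of 8, 6 of 7 and 10 of 10 embryos. From the late blastocyst on, ACSL3, a synthetase of the endoplasmic reticulum and lipid droplets, led instead, at 137 TPM ± 64.6 (n = 4) in LB EPI, 329 ± 175 (n = 5) in LB HYPO, 274 ± 23.3 (n = 4) in Sph EPI and 337 ± 233 (n = 3) in Sph HYPO. It led in 4 of 4, 3 of 5, 4 of 4 and 2 of 3 embryos.

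In CPM, ACSL6 had a lowest, median and highest embryo of 351, 578 and 792 in M, of 41, 267 and 504.1 in EB ICM and of 178, 742 and 1101 in EB TE. The 4 LB EPI embryos had 0, 0.0855, 0 and 0.0535, and the 4 Sph EPI embryos 2.62, 0.958, 0 and 0. The LB HYPO embryos had 0, 0.0419, 0.217, 16.7 and 0, and the 3 Sph HYPO embryos had no count. No embryo of a later label reached the lowest embryo of M, EB ICM or EB TE. In counts, EB ICM held 19152 of ACSL6 and LB EPI 2, a ratio of 9286 per library size with a counting interval of 2570 to 76681 (exact, 95%), and the difference was called (edgeR, adjusted p = 1.25e-05). Against Sph EPI the log2 fold change was 8.29 (SE 1.45, adjusted p = 0.00314). Both calls held in every alternative and with every embryo left out in turn, with adjusted p up to 0.0188.

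ACSL4, a synthetase that prefers arachidonic acid, ran the other way. It had no count in any of the 8 morula embryos, 4 counts in 1 of 7 EB ICM embryos and 2 counts in 1 of 10 EB TE embryos. The 4 LB EPI embryos had 26.8, 41.8, 61.9 and 15.8 CPM and the 4 Sph EPI embryos 226, 112, 193 and 180, so that each epiblast embryo lay above each earlier one. In LB HYPO 4 of 5 embryos were at 0 and the other at 12.5, and in Sph HYPO the values were 0.526, 0 and 0. EB ICM against LB EPI gave a log2 fold change of -8.97 (SE 1.69, edgeR adjusted p = 0.00867) and against Sph EPI of -11.21 (SE 1.17, adjusted p = 4.76e-05). The first call was lost when only the cells of the first 4 or last 4 library pools were used, with adjusted p up to 0.241, and the second held in each alternative. Between the 2 epiblast labels the log2 fold change was -2.20 (SE 0.50) with an adjusted p of 0.134, although the embryos did not overlap.

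Cells showed the same pattern one by one. ACSL6 had TPM over 1 in 47 of 47 M cells (100%, exact Clopper-Pearson 95% interval from 92.5), in 24 of 24 EB ICM cells and in 25 of 28 EB TE cells (89.3%, 71.8 to 97.7). In LB EPI it was 0 of 25, which allows a share of up to 13.7%, and in Sph EPI 2 of 48 (4.17%, 0.509 to 14.3). ACSL4 was over 1 in 9 of 25 LB EPI cells (36%, 18 to 57.5) and 43 of 48 Sph EPI cells (89.6%, 77.3 to 96.5). It was over 1 in 0 of 47 M cells, which allows up to 7.55%. Over the 220 cells, 100 had ACSL6 without ACSL4, 52 had ACSL4 without ACSL6 and 2 had both, the latter in Sph EPI. Intervals and limits cover counting error only, and cells of an embryo are not independent.

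**Figure D2:**
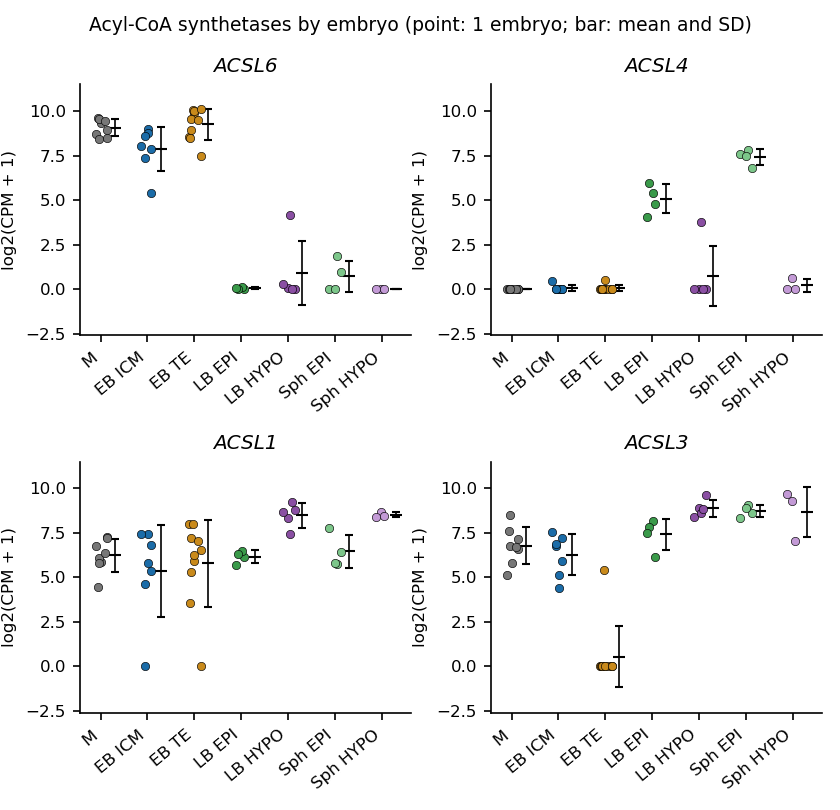
Level of 4 acyl-CoA synthetases, as log2(CPM + 1) on the vertical axis, for each of the 41 sums of an embryo and label (points), with mean and SD beside each label. ACSL6 is at 41 CPM or more in every M, EB ICM and EB TE embryo and at most 16.7 later, ACSL4 is at 15.8 CPM or more in the 8 epiblast sums and at most 12.5 elsewhere, and ACSL3 is at 0 in 9 of 10 EB TE embryos.

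Of the other synthetases, ACSL1 was called between lineages of the late blastocyst and ACSL3 between EB ICM and Sph EPI. ACSL1, whose product serves both storage and oxidation, had 68.6, 90.0, 79.8 and 51.5 CPM in the 4 LB EPI embryos and 435, 317, 406, 170 and 606 in the 5 LB HYPO embryos, without overlap. Its log2 fold change was -2.45 (SE 0.44, edgeR adjusted p = 0.0123), which the embryo as a block took to an adjusted p of 0.305. The call was also lost with the 7 labels in 1 fit and with the first 4 or last 4 pools alone, with adjusted p up to 0.534. In spherical embryos the EPI had 53.6, 85.0, 221 and 55.9 CPM and the HYPO 409, 340 and 352, again without overlap, with a log2 fold change of -1.77 (SE 0.59) that did not pass (adjusted p = 0.212). ACSL3 had no count in 9 of 10 EB TE embryos and 41.1 CPM in the other, AC, whereas the EB ICM embryos had 20.4, 107 and 186 as lowest, median and highest. That difference did not pass (adjusted p = 0.120), but did with the embryo as a block. From EB ICM to Sph EPI, whose embryos had 537, 388, 316 and 477 CPM, ACSL3 rose, with a log2 fold change of -2.18 for EB ICM against Sph EPI (SE 0.51, edgeR adjusted p = 0.0200). Without Sph EPI embryo C or F that call was lost, with adjusted p up to 0.0668. It was also lost with limma, with the 7 labels in 1 fit, and with the first 4 or last 4 pools alone.

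At the carnitine step, CPT1C was higher in both epiblast labels than in EB ICM, and CPT1A was called in no pair by edgeR, while DESeq2 and limma called it between EB ICM and Sph EPI. CPT1A, the rate-limiting enzyme of fatty acid entry into mitochondria, had 38.3, 93.6 and 218 CPM in M (lowest, median, highest), 42.9, 118 and 162 in EB ICM and 1.18, 33.1 and 131 in EB TE. The LB EPI embryos had 96.4, 24.5, 19.9 and 125, and the Sph EPI embryos 0, 0.167, 8.01 and 30.6. The 5 LB HYPO embryos lay between 0 and 21 and the 3 Sph HYPO embryos between 0 and 6.57. Each EB ICM embryo was above each Sph EPI embryo, and LB EPI overlapped both. CPT1A was called over the 7 labels (edgeR adjusted p = 0.0127). For EB ICM against Sph EPI its log2 fold change was 3.53 (SE 1.39, edgeR adjusted p = 0.125). For EB ICM against LB EPI it was 0.75 (SE 0.64, adjusted p = 0.586).

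CPT1C, the neuronal isoform, which sits in the endoplasmic reticulum and has little transferase activity, had no count in the 25 sums of M, EB ICM and EB TE. The LB EPI embryos had 9.76, 14.8, 4.23 and 13.6 CPM and the Sph EPI embryos 68.7, 51.3, 45.8 and 79.0. In LB HYPO 1 of 5 embryos was above 0, AM at 5.99, and in Sph HYPO none was. Sph EPI was at least 1078-fold higher than EB ICM (7043 counts against 0, the bound taken from 3 counts over the group, edgeR adjusted p = 0.00167), and LB EPI at least 185-fold (adjusted p = 0.0425). The LB EPI call rested on little, since leaving out any 1 of 10 of the 11 embryos, all but EB ICM embryo AD, took it past the threshold, with adjusted p up to 0.0997. It was also lost with either set of 4 pools and with sums of at least 2 cells, while the Sph EPI call held throughout.

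Cells over 1 TPM for CPT1A numbered 41 of 47 in M (87.2%, 74.3 to 95.2), 23 of 24 in EB ICM (95.8%, 78.9 to 99.9), 19 of 25 in LB EPI (76%, 54.9 to 90.6) and 7 of 48 in Sph EPI (14.6%, 6.07 to 27.8). Those for CPT1C were 0 of 24 in EB ICM, which allows up to 14.2%. They were 9 of 25 in LB EPI and 41 of 48 in Sph EPI (85.4%, 72.2 to 93.9). In LB EPI 7 cells had both, 12 had CPT1A alone and 2 CPT1C alone, and in Sph EPI these were 5, 2 and 36. LB EPI was the label in which the pair overlapped most. CPT2, the partner enzyme of the inner membrane, had mean TPM between 6.60 in Sph HYPO and 41.2 in EB ICM and was not called in any pair.

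**Figure D3:**
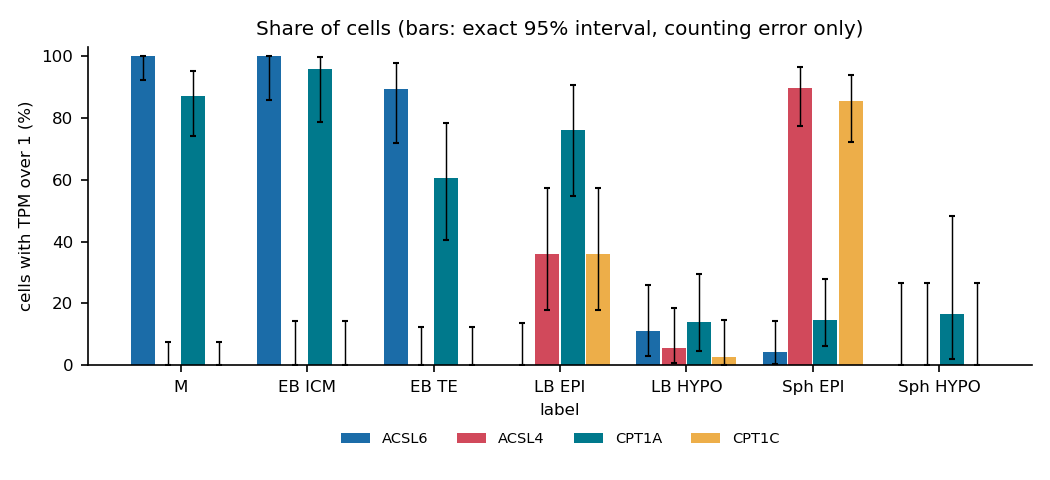
Share of cells with TPM over 1 (vertical axis, percent) for ACSL6, ACSL4, CPT1A and CPT1C in each label, with exact 95% intervals for counting error. ACSL6 and CPT1A stand at 60.7% or more in M, EB ICM and EB TE, and ACSL4 and CPT1C at 85.4% or more in Sph EPI and at 0 in the first 3 labels.

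Among the dehydrogenases, ACADSB was higher in EB ICM than in M, and ACADL and ACADSB had their highest mean CPM in LB EPI. ACADSB, which acts on short branched-chain acyl-CoA from isoleucine, had 45.9, 63.2 and 110 CPM in M and 212, 527 and 614 in EB ICM (lowest, median, highest), without overlap. This was the only member called between M and EB ICM, of 44, where 2.45% of all entries were called (log2 fold change -2.75, SE 0.29, edgeR adjusted p = 2.03e-05). The first 4 pools alone gave an adjusted p of 0.0547, and no embryo left out changed the call. In EB TE the values spread from 0.374 to 376 around a median of 101.

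The 4 LB EPI embryos had 676, 855, 693 and 571 CPM of ACADSB, the highest of the 7 labels in mean, and it was the leading dehydrogenase there at 479 TPM ± 67.0 (SD, n = 4). The LB HYPO embryos had 88.0, 99.3, 31, 143 and 328, all below. The log2 fold change was 2.31 (SE 0.53, adjusted p = 0.0425). That call was lost in 7 of 9 leave-one-out fits, with adjusted p up to 0.109, and with the embryo as a block (adjusted p = 0.223). It was also lost with limma, with sums of at least 2 cells, with the 7 labels in 1 fit and with the first 4 or last 4 pools alone, with adjusted p up to 0.351. The embryos whose removal lost it were AN, AO, AP and AQ of LB EPI and AL, AM and AO of LB HYPO. In Sph EPI the embryos had 218, 245, 142 and 340 CPM, all under LB EPI, with a log2 fold change of 1.65 (SE 0.29) that missed the threshold at an adjusted p of 0.0508. It passed (adjusted p under 0.05) without TMM, without the filter on low values and with filterByExpr.

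ACADL, the long-chain acyl-CoA dehydrogenase, separated epiblast from hypoblast at both stages. Its levels were 124, 257 and 344 CPM in M, 19.4, 137 and 384 in EB ICM and 0, 235 and 537 in EB TE, the 0 being the sum E6-ER. The LB EPI embryos had 527, 609, 601 and 405, and the LB HYPO embryos 0, 12.1, 41.6, 25.4 and 0.281. The Sph EPI embryos had 180, 189, 91.1 and 283, and the Sph HYPO embryos 0, 0 and 0.122. In both pairs every EPI embryo exceeded every HYPO embryo. In cells, TPM was over 1 in 25 of 25 LB EPI and 6 of 36 LB HYPO (16.7%, 6.37 to 32.8). It was over 1 in 43 of 48 Sph EPI and in 0 of 12 Sph HYPO, the latter allowing up to 26.5%.

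In late blastocysts the log2 fold change of ACADL was 5.02 (SE 1.13, adjusted p = 0.0392), and the block took it to 0.173. Leaving out AN, AO, AP or AQ of LB EPI, or AM or AO of LB HYPO, also lost that call, with adjusted p up to 0.09998. It was lost with the first 4 pools alone as well (edgeR adjusted p = 0.221). In spherical embryos 22629 counts stood against 2, a ratio of 2508 with a counting interval of 694 to 20707 (adjusted p = 0.00192, and 0.00911 with the block), and this call held in each alternative. ACADL was lower in Sph EPI than in LB EPI, with a log2 fold change of 1.61 for LB EPI against Sph EPI (SE 0.33, edgeR adjusted p = 0.0897). ACADM, in contrast, had means between 170 CPM in EB TE and 516.6 in EB ICM. It was above 50 CPM in all sums but AC and AE of EB TE, and was not called in any pair by edgeR fitted to the 2 labels with all cells and no block.

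**Figure D4:**
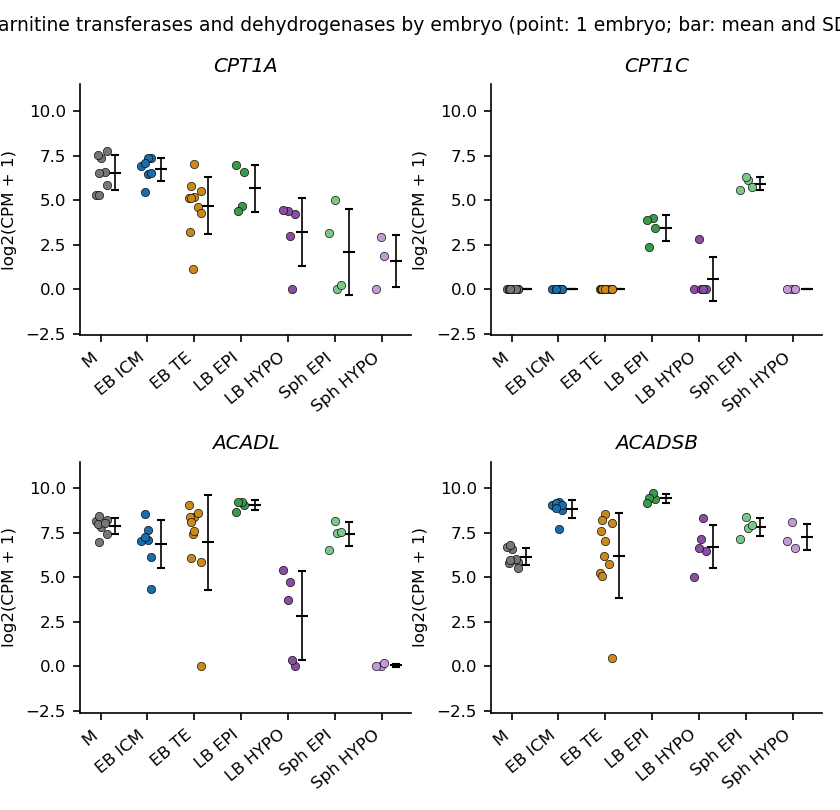
Level of CPT1A, CPT1C, ACADL and ACADSB as log2(CPM + 1) for each embryo (points), with mean and SD beside each label. ACADL is at 91.1 CPM or more in every EPI embryo and at most 41.6 in every HYPO embryo, CPT1C is at 0 in the first 3 labels, and ACADSB is higher in each EB ICM embryo than in each M embryo.

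Between EB ICM and EB TE no member passed by edgeR, where 0.754% of all entries were called. At an unadjusted p under 0.05 stood 11 of 44 members and 18.9% of all entries. DESeq2 called ECHDC2, among 457 entries called, and limma ECHDC2 and ACSL3, among 226. With the embryo as a block 2 members, ACADM and ACSL3, were called, and with the cell E6-ER and another of less certain embryo left out 1 was, ACADM, whose level in E6-ER, 649 CPM, was the highest of the 10 EB TE sums.

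From EB ICM to LB EPI, 3 of 44 members were called (ACSL6 lower in LB EPI, ACSL4 and CPT1C higher), where the background was 2.91%. From EB ICM to Sph EPI 5 were called, against 6.73% of all entries, with ACSL4, ACSL3 and CPT1C higher in Sph EPI and ACSL6 and ACOT9 lower. These comparisons share the EB ICM sums. ACOT9, a mitochondrial thioesterase, had 208, 336 and 632 CPM in EB ICM and 111, 63.3, 165 and 102 in Sph EPI, without overlap, and a log2 fold change of 1.68 (SE 0.39, adjusted p = 0.0205). That call was lost without Sph EPI embryo C, D or F, with adjusted p up to 0.0733, with the 7 labels in 1 fit, and with the first 4 or last 4 pools alone. ACSL4 and ACOT9 are X-linked genes in mammals, and the sex of the embryos did not enter the fits. The median log2 fold change over all entries was -0.30 here, and 0.28 over the members.

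Other markers moved with these EB ICM comparisons. HBB, a globin gene of red blood cells, had up to 73.4 CPM in EB ICM (median 22.1) and no count in LB EPI, and the 2 blood and immune markers that passed the limit summed to between 3.24 and 73.4 CPM in EB ICM and to at most 0.0588 in LB EPI and 2.37 in Sph EPI. The hypoblast markers summed to 517.01 to 2666 CPM in EB ICM, 44.9 to 280 in LB EPI and 61.5 to 96.9 in Sph EPI. The trophectoderm markers summed to 268 to 746 CPM in EB ICM, 2937 to 5071 in LB EPI and 2674 to 10879 in Sph EPI. That sum was carried by KRT8 and KRT18, the only 2 of the 7 called, while the median log2 fold change of the list was 2.63 towards EB ICM against LB EPI and 2.85 against Sph EPI. DAB2 and TFAP2A, for example, had means of 18.1 and 59.1 CPM in EB ICM and 2.33 and 2.35 in LB EPI. The part of these markers in the results was not tested.

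Between the 2 epiblast labels no member was called, where 0.156% of all entries were. At an unadjusted p under 0.05 stood 12 of 44 members and 13.6% of all entries. DESeq2 called 8 members there, in a run that also called many times as many of all entries as edgeR did. Limma called no member, among 97 entries called. Between LB EPI and LB HYPO 3 of 44 were called, ACADL, ACADSB and ACSL1, against 1.92%, and between Sph EPI and Sph HYPO 3, ACADL, ACSL4 and CPT1C, against 1.13%. In the last pair the median log2 fold change over all entries was 0.57, so a member at that value followed the rest, and the median member stood at 0.60. CPT1C had 7043 counts in Sph EPI and none in Sph HYPO, at least 520-fold (adjusted p = 0.0184, and 0.184 with the block), a call that was lost without any 1 of the 4 Sph EPI embryos (adjusted p up to 0.0759). ACSL4 had 18888 and 2 counts, a ratio of 2093 with a counting interval of 579 to 17284 (adjusted p = 0.00860, and 0.0243 with the block). With the 7 labels in 1 fit both calls were lost, at adjusted p of 0.171 for CPT1C and 0.119 for ACSL4. The CPT1C call was also lost with the last 4 pools alone. Sph HYPO rested on 12 cells of 3 embryos.

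Whether the EPI against HYPO difference itself changed between the stages was tested as an interaction. No member was called by edgeR, where 0.0408% of all entries were. At an unadjusted p under 0.05 stood 13 of 44 members and 10.8% of all entries. DESeq2 called ACADL, ECHDC1 and ELOVL4, among 571 entries called, and limma ECHDC1, among 171. So the calls of ACADSB and ACSL1 in late blastocysts and of ACSL4 and CPT1C in spherical embryos were not shown to differ between the stages.

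**Figure D5:**
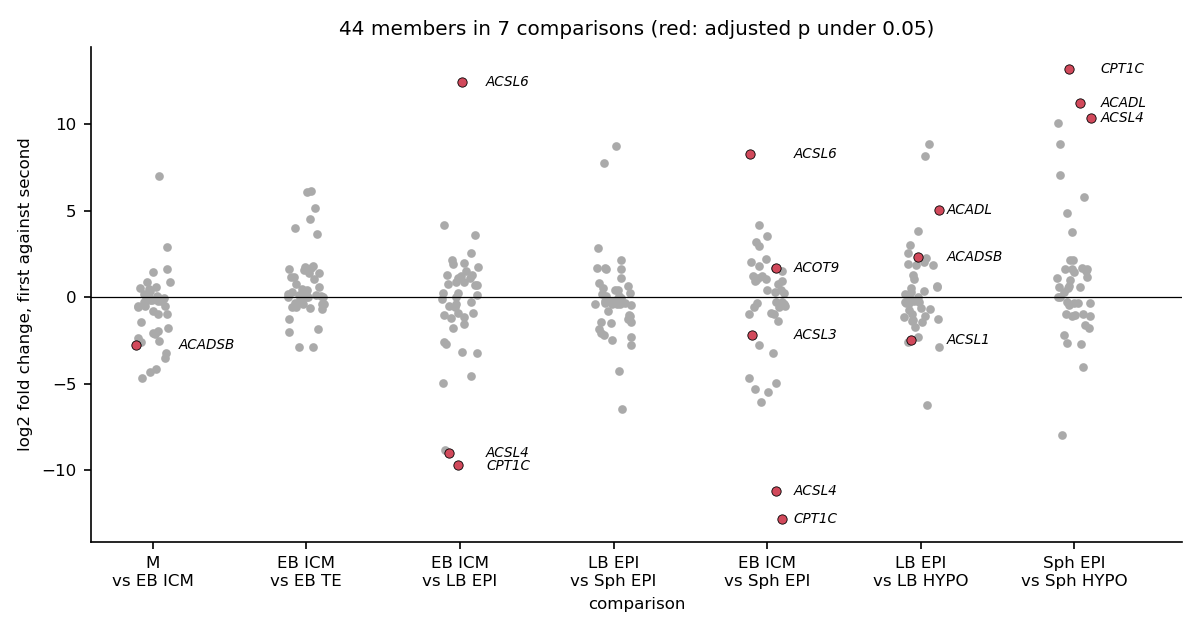
Fitted log2 fold change (vertical axis, first label against second) of each of the 44 members in the 7 comparisons, with members of adjusted p under 0.05 in red and named. Sizes near 10 belong to genes with few or no counts in a label and depend on the prior count of the fit. ACSL6 is positive and ACSL4 and CPT1C are negative in both comparisons of EB ICM with epiblast.

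On the synthesis side, ACLY had its lowest mean level in Sph HYPO, at 27.6 TPM, and its highest in Sph EPI, at 94.1, and was called in no pair. Its lowest, median and highest embryos were 15.8, 34.7 and 91.9 CPM in M, 0, 73.6 and 129 in EB ICM and 0, 50.2 and 139 in EB TE. The LB EPI embryos had 80.3, 128, 64.5 and 38.9 and the Sph EPI embryos 86.8, 149, 84.7 and 115, with the hypoblast labels between 0.323 and 124. The labels overlapped except that each Sph EPI embryo exceeded each Sph HYPO embryo, and the test over the 7 labels did not pass (adjusted p = 0.895). For EB ICM against Sph EPI the log2 fold change was -0.59 (SE 0.92, edgeR adjusted p = 0.791). SLC25A1, the carrier that exports citrate from mitochondria, is not a member, but had 5.59, 31.1 and 45.6 CPM in EB ICM and 89.2, 70.4, 529 and 104 in Sph EPI, without overlap (log2 fold change -2.68, SE 0.68, edgeR adjusted p = 0.0298). That call was lost without EB ICM embryo AG or Sph EPI embryo E, with adjusted p up to 0.208, with limma, and with the first 4 or last 4 pools alone.

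FASN had no count in the 18 sums of M and EB TE and 21 counts in EB ICM, and its highest embryo in the later labels was 21.3 CPM. FADS2, a desaturase of polyunsaturated fatty acids, had no count in M and LB HYPO and between 4.58 and 11.2 CPM in the 4 Sph EPI embryos. SCD, which makes monounsaturated fatty acids, had 113, 385 and 428 CPM in M, 20.7, 115 and 280 in EB ICM and 0, 492 and 936 in EB TE. The LB EPI embryos had 0, 68, 42.3 and 147 and the Sph EPI embryos 152, 213, 207 and 142. SCD had a log2 fold change of 1.48 for M against EB ICM (SE 0.45, edgeR adjusted p = 0.0812) and was not called in any pair. ELOVL2 was at 0 in all 10 EB TE sums and reached at most 22.4 CPM, in M. These low levels describe what could be detected at this depth, and a drop in cells that use a gene cannot be told apart from less RNA per cell in summed counts.

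Of the remaining members with a named place, ECI2, an enoyl-CoA isomerase, was all but missing early and present later. It was at 0 in 5 of 8 M, 6 of 7 EB ICM and 9 of 10 EB TE sums, the exceptions reaching at most 18.7 CPM. The LB EPI embryos had 18.3, 25.6, 10.7 and 42.9 and the Sph EPI embryos 151, 97.3, 113 and 60.8, all above both EB ICM and LB EPI. ECI2 was called over the 7 labels (adjusted p = 9.76e-06) but in no pair (EB ICM against Sph EPI, log2 fold change -5.31, SE 1.85, adjusted p = 0.0937).

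HADH was detected in all 41 sums, with means from 148 CPM ± 78.8 (SD, n = 8) in M to 718 ± 320 (n = 3) in Sph HYPO. FABP5 was highest in LB EPI, at 396, 312, 211 and 441 CPM, and lowest in EB TE, at 0, 37.6 and 67.5, with no pairwise call. ECHDC1, an ethylmalonyl-CoA decarboxylase that removes a side product of fatty acid synthesis, had 301, 259 and 106 CPM in Sph HYPO and 30.1, 70.9, 9.08 and 32.6 in Sph EPI, while in late blastocysts EPI, at 110 to 188, was above HYPO, at 0 to 67.2. ACSM3, a medium-chain synthetase, had means between 9.46 CPM in Sph HYPO and 35.9 in EB ICM. FABP7 had no count outside spherical embryos, where it had 70 counts in EPI and 174 in HYPO. ECHDC3 had 89 counts in LB EPI, 20 in LB HYPO and at most 2 in any other label.

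Genes of the same pathways outside the member list were tested too. In the pairs 0.156% to 6.73% of all entries were called, depending on the pair. Of 8 tested transport and carnitine shuttle genes, 7 were called over the 7 labels, where 37.7% of all entries were, and 3 of the 7 (SLC27A1, SLC27A3 and SLC27A6) had few counts, at which that test also called unchanged genes in simulated data. SLC27A4, a fatty acid transport protein of the plasma membrane and endoplasmic reticulum, was higher in EB ICM than in M (log2 fold change -1.73, SE 0.36, edgeR adjusted p = 0.0105), than in LB EPI (4.73, SE 1.04, adjusted p = 0.0214) and than in Sph EPI (4.96, SE 0.999, adjusted p = 0.00836). It was lower in LB EPI than in LB HYPO (-5.23, SE 1.11, adjusted p = 0.0288). Its mean was 9.38 CPM ± 11.7 (SD, n = 4) in LB EPI and 344 ± 147 (n = 5) in LB HYPO. CRAT, carnitine acetyltransferase, was lower in M than in EB ICM (log2 fold change -1.78, SE 0.44, adjusted p = 0.0337), and SLC27A3 had 0 counts in EB ICM and 817 in Sph EPI (adjusted p = 0.0214).

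Of 15 other β-oxidation genes none was called in any pair by edgeR, where 0.156% to 6.73% of all entries were. Over the 7 labels 1, ABCD2, was called, against 37.7% of all entries. Of 14 other synthesis and elongation genes, the elongation enzymes HACD3 and HSD17B12 were lower in LB EPI than in LB HYPO, with log2 fold changes of -1.87 (SE 0.34, adjusted p = 0.0123) and -1.69 (SE 0.35, adjusted p = 0.0267). ACSF2, a mitochondrial acyl-CoA synthetase, was lower in EB ICM than in Sph EPI (-3.93, SE 1.11, adjusted p = 0.0466), with means of 28.2 and 427 CPM. Among 5 ketone body genes OXCT1, which lets cells burn ketone bodies, was higher in EB ICM than in Sph EPI (2.81, SE 0.41, adjusted p = 0.000826), with means of 441 and 62.2 CPM. Of 19 triglyceride and lipid droplet genes 1 was called in a pair, CIDEB, with 1 count in M and 132 in EB ICM (adjusted p = 0.0485). Of 16 transcriptional regulators HNF4A was called, with no count in either epiblast label against 5986 counts in EB ICM (adjusted p = 0.00156 for LB EPI and 0.000686 for Sph EPI), and it was lower in LB EPI than in LB HYPO (adjusted p = 0.00541) and in M than in EB ICM (adjusted p = 0.0488).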

How the data were processed

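Single cells of pig embryos had been prepared with Smart-seq2 and Nextera XT, and late blastocysts had lost their trophectoderm by immunosurgery. Per the labels, the submitters' processing notes name HISAT2 2.1.0 and HTSeq, and the count table that the authors deposited holds whole, unnormalized counts for every cell. The authors also deposited TPM values, which scale the counts by gene length and by the total of the cell. Gene symbols were looked up by Ensembl pig identifier, which named 11437 entries holding 75.3% of the counts, so a gene without a symbol was not found by the rule. No sequence table or genome of the build used was at hand, and the coordinates and sequences of the members are not given.

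Members and lists were chosen with earlier results of these data known. Counts were summed per embryo and label, and edgeR 4.0.16 (R 4.3.3) with TMM and its quasi-likelihood F test was run on 14721 entries with TPM over 1 in at least 3 cells, with Benjamini-Hochberg adjustment at 0.05 over those entries. Each pairwise fit used the embryos of its 2 labels. Log2 fold changes set the earlier stage against the later, ICM against TE or EPI against HYPO, and are positive where the first is higher. Standard errors are the log2 fold change divided by the root of F. Values named in full are those of ACSL6, ACADL, ACADSB, CPT1A, ACLY and SLC25A1, members called in a pair, the 12 members of smallest p over the 7 labels, and the leading member of each family by TPM. A value that this rule would name is not reported here. Alternatives were DESeq2 1.42.0, limma 3.58.1 on mean log2(TPM + 1) per embryo with a pseudocount of 1, no TMM, other filters, sums of at least 2 cells, the 7 labels in 1 fit, the embryo as a block, the first or last 4 of 8 library pools, the cells of less certain embryo left out, and each sum left out in turn. For the test over 7 labels only the LB and Sph sums were left out in turn. Single genes were followed under the alternatives only where they were members or SLC25A1. The scripts were tested on simulated counts. There the test over 7 labels called unchanged genes of few counts, so a limit of 100 mean counts per sum was added after the data were seen.

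Embryo sums of the same embryo share the animal, which pairs them. The median correlation of their deviations from the label means over 4841 genes was 0.065 over 7 pairs of EB ICM and EB TE, 0.017 over 3 pairs of LB EPI and LB HYPO and 0.0528 over 3 pairs of Sph EPI and Sph HYPO. Nothing says that the embryos are independent in litter. The p-values set a label difference against the spread between sums, and without the block they treat paired sums as independent. Counts per cell had a median of 2006853.5. Scipy 1.17.1 gave the binomial intervals, and matplotlib 3.10.9 drew the figures.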

Additional observations from a re-analysis of the deposited data

Results flagged for a closer look

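In 31 of 128 groups of 4 to 10 embryos the highest or lowest embryo stood apart from the others by Dixon's 95% limit. That limit assumes normal values, which log2(CPM + 1) with many values at 0 is not, so no rate by chance is given. Many of these groups hold a single embryo above 0 or a single embryo at or near 0.

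Among the synthetases, embryo AO stood high in LB HYPO for ACSL6, at 16.7 CPM, and for ACSL4, at 12.5 CPM. ACSL4 was above 0 in 1 EB ICM embryo, AC, at 0.370 CPM, and in 1 EB TE embryo, AH, at 0.403. ACSL3 had 41.1 CPM in EB TE embryo AC and 0 in the other 9. ACSL1 was at 0 in EB ICM embryo AI. CPT1C was at 5.99 CPM in LB HYPO embryo AM and 0 in the others.

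Among the dehydrogenases and other oxidation genes, ACADL was at 0 in the EB TE sum E6-ER. ACADSB was at 212 CPM in EB ICM embryo AE, where the others had 442 to 614, and at 0.374 in EB TE embryo AI. HADH was at 2.71 CPM in M embryo V and at 187 in Sph EPI embryo E. ECI2 was at 0.639 CPM in M embryo W, 18.7 in EB ICM embryo AA and 0.187 in EB TE embryo AI. ECHDC1 was at 0 in EB ICM embryo AD, and ECHDC3 was at 0.179 CPM in M embryo ER and 0.185 in EB ICM embryo AC. ACOT9 was at 0 in M embryo Y and in LB EPI embryo AN.

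Among the genes of synthesis and binding, ACLY was at 0 in EB ICM embryo AD and SCD at 113 CPM in M embryo V. FASN was at 1.47 CPM in EB ICM embryo AA. FADS2 was at 0.992 CPM in EB ICM embryo AF and 11.2 in Sph EPI embryo F. ELOVL2 was at 8.53 CPM in EB ICM embryo AG, 10.3 in LB EPI embryo AO and 6.03 in LB HYPO embryo AO. FABP5 was at 0 in EB TE embryo AE and at 11 CPM in LB HYPO embryo AL. The citrate carrier SLC25A1 was at 5.59 CPM in EB ICM embryo AA.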

How the results depend on the processing

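Among the members and SLC25A1, no log2 fold change that was called turned its direction under any alternative run. Called genes of the other lists, such as SLC27A4, CIDEB and HNF4A, were not followed under the alternatives. The number of members called moved by over 1.5 times as follows, and the causes were not tested unless the setting itself used fewer samples or genes. Brackets give all entries called in the same run, of 14721 tested unless another number is given. Over the 7 labels it was 20 (5556). It became 10 with the last 4 pools (3276) and 12 with entries of at least 100 mean counts (1520 of 7204). For M against EB ICM it was 1 (361). It became 5 with DESeq2 (1216) and 4 with limma (666). With sums of at least 2 cells it was 2 (399), and with the first 4 pools 0 (38). For EB ICM against EB TE it was 0 (111). It became 1 with DESeq2 (457), 2 with limma (226) and 5 with all labels in 1 fit (865). With the embryo as a block it was 2 (89), and without the cells of less certain embryo 1 (184). For EB ICM against LB EPI it was 3 (428). It became 6 with DESeq2 (1384), 6 with limma (969) and 1 with the first 4 pools (123) or the last 4 (195). For LB EPI against Sph EPI it was 0 (23). It became 8 with DESeq2, which also called many times as many of all entries as the main run. It was 1 without TMM (45), without a filter (51 of 15580) or with filterByExpr (35 of 9820). For EB ICM against Sph EPI it was 5 (990), and became 14 with DESeq2 (2051) and 12 with limma (1896). For LB EPI against LB HYPO it was 3 (283). It became 0 with the embryo as a block (20), 0 with the first 4 pools (113) and 1 with the last 4 (64). For Sph EPI against Sph HYPO it was 3 (167). It became 8 with DESeq2 (1447), 6 with limma (367) and 1 with all labels in 1 fit (95). For the interaction it was 0 (6), and became 3 with DESeq2 (571) and 1 with limma (171). Over the 7 labels only the 16 LB and Sph sums were left out in turn, and the count ranged from 19 to 21 (5197 to 5573). No M, EB ICM or EB TE sum was left out there. Without the cells of less certain embryo, E6-ER among them, it was 24 (5759). In pairs, leaving out each sum gave 1 to 2 (250 to 419) for M against EB ICM. For EB ICM against EB TE it gave 0 to 1 (58 to 184). For EB ICM it was 2 to 4 (239 to 428) against LB EPI and 3 to 6 (492 to 1003) against Sph EPI. For LB EPI it was 0 to 1 (11 to 41) against Sph EPI and 1 to 3 (138 to 294) against LB HYPO. It was 2 to 3 (78 to 583) for Sph EPI against Sph HYPO and 0 to 0 (0 to 165) for the interaction. The block could not be fitted where labels share fewer than 2 embryos. Of 49 shares of cells, 3 moved with TPM over 0, 1 with TPM over 5 and 2 after thinning to 1000000 counts. A share of 0 in 12 Sph HYPO cells still allows up to 26.5%.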

Other observations

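The morula cell that could not be placed in an embryo had 2488103 counts. It had 172 TPM of ACSL6, where the other morula cells ranged from 39.4 to 691 with a median of 263, and 81.3 TPM of ACADL, where they ranged from 0 to 376. Its ACADSB was 44.3 TPM and its CPT1A 100.2, within the morula ranges of 0 to 252 and 0 to 198. ACSL4 and CPT1C were at 0 in this cell and in every other morula cell.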
